A study of Homo sapiens with 12 samples.

Results

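The nuclear-encoded subunits of the oxidative phosphorylation complexes were compared in cytoplasmic RNA of U2OS cells, a human osteosarcoma cell line, after knock-down of 3 factors of mRNA export. The subunits were chosen by gene symbol alone: SDHA to SDHD, CYC1, and every symbol that begins with NDUFA, NDUFB, NDUFC, NDUFS, NDUFV, UQCR, COX4I, COX5, COX6, COX7, COX8 or ATP5, without the NDUFAF assembly factors and without pseudogenes. This gave 86 protein-coding genes of 27522 gene names on the array, measured by 106 probes: 37 of complex I, 4 of complex II, 9 of complex III, 17 of complex IV and 19 of complex V. A further 3 probes of 2 non-coding genes, NDUFA6-DT and NDUFB2-AS1, matched by symbol and were set apart, and 1 probe of the pseudogene UQCRBP1 was left out. RefSeq lists 89 protein-coding genes under the rule, and UQCRHL, ATP5MF-PTCD1 and NDUFC2-KCTD14 had no probe here.

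Cells received 20 nM of a control siRNA or of siRNA against DBP5, GLE1 or IPPK, with no other agent, and were cultured for 48 h. DBP5 is an RNA helicase at the cytoplasmic face of the nuclear pore, GLE1 stimulates it, and IPPK makes the inositol hexakisphosphate that binds between them. Cytoplasmic RNA was labelled with a single dye and read on 12 arrays placed on 3 slides, with every siRNA present once on a slide and thus 3 times in all. Per the methods the array experiment was done 3 times independently. Which steps were repeated is not given in the sources used here, so p-values measure the spread between these arrays. Values are normalized log2 intensities, in which all arrays were brought to the same overall level. A difference is therefore relative to the other RNAs of the fraction, and less RNA per cell, fewer cells and a changed share of RNA reaching the cytoplasm cannot be told apart.

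Oxidative phosphorylation passes electrons from NADH through complex I, or from succinate through complex II, to ubiquinone, then through complex III and cytochrome c to complex IV, where oxygen is reduced. Complexes I, III and IV move protons across the inner mitochondrial membrane, and complex V, the ATP synthase, uses their return to make ATP. Complexes I, III, IV and V also need subunits made inside the mitochondrion from its own DNA, so the mRNAs measured here, which are translated in the cytosol, supply only the imported side of each complex. All of complex II is encoded in the nucleus.

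The siRNA targets checked the labels. DDX19B, the gene of DBP5, read 10.23, 10.15 and 10.15 on the control arrays and 6.25, 6.21 and 6.20 on the DBP5 arrays, a ratio of 0.0643 to control. GLE1 fell to a ratio of 0.102 and IPPK to 0.187 under their own siRNAs. Between 70.9% and 77.7% of probes were well above background on an array, with the IPPK arrays between 70.9% and 73.8% and the other arrays between 73.4% and 77.7%, and 0 spots were saturated. Of 8 mesenchymal markers expected of an osteosarcoma line, 7 were well above background on all 12 arrays, against 3 of 4 epithelial, 2 of 4 leukocyte and 2 of 3 muscle markers, and no marker was below background on every array. The summed epithelial level was 11.58 to 11.62 (log2) on control arrays, 11.47 to 11.77 with DBP5 siRNA, 12.11 to 12.27 with GLE1 siRNA and 10.69 to 11.24 with IPPK siRNA. The summed mesenchymal level ran from 17.98 to 18.56, the leukocyte level from 7.66 to 8.21 and the muscle level from 6.43 to 7.05. The part of these in the subunit results was not tested.

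Of the 86 subunits, 85 passed the filter on dim probes, which kept a gene if 1 or more of the siRNAs gave a signal clear of background in its 3 arrays, and 84 were well above background on all 12 arrays. COX7A1, the heart and muscle form of a complex IV subunit, was not well above background on any array. COX8C, a testis form, was well above background on the 9 knock-down arrays and on 0 of 3 control arrays, so it passed through the groups in which it was high. The counts below of higher subunits in a knock-down against control, over all subunits, over complex IV and over its tissue forms, would each be 1 smaller without COX8C.

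More subunits were higher than lower in each knock-down. With DBP5 siRNA 33 of 85 subunits were higher and 9 lower than in control, with GLE1 siRNA 40 were higher and 14 lower, and with IPPK siRNA 54 were higher and 3 lower (limma, adjusted p below 0.05). Among all 20821 genes tested the calls were nearly even, with 26.7% higher and 27.5% lower for DBP5, 30.6% and 31.5% for GLE1, and 27.3% and 28.0% for IPPK, while the subunits gave 38.8% and 10.6%, 47.1% and 16.5%, and 63.5% and 3.53%. The median log2 difference of the subunits was 0.12, 0.14 and 0.20, beside medians over all genes of -0.02, 0.01 and -0.03. The 3 comparisons share the same control arrays. No set test was made on the list.

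**Figure D1:**
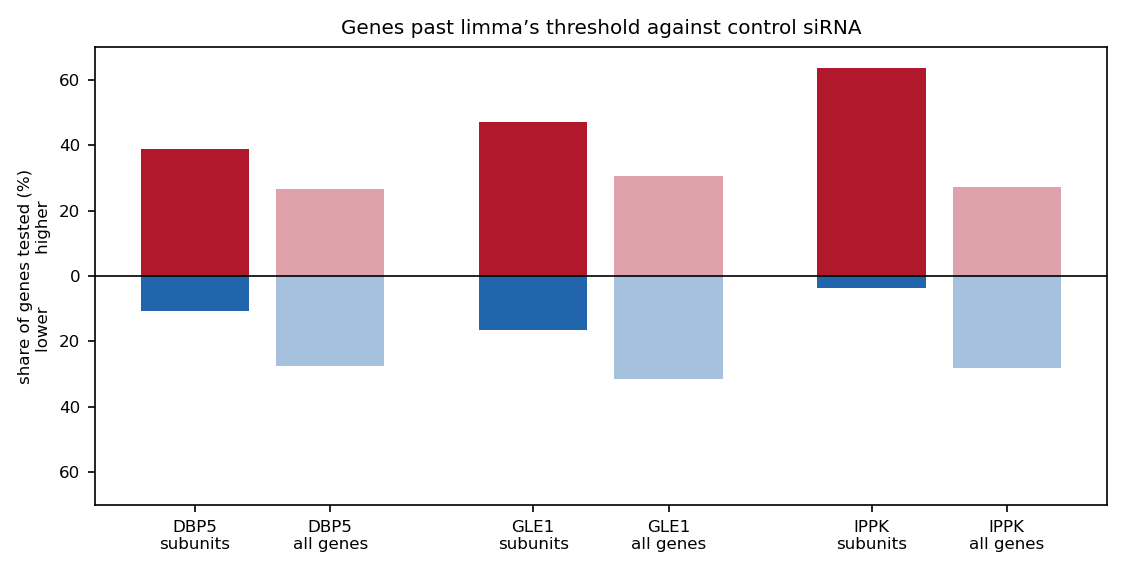
Share of genes past limma's threshold against control siRNA, in percent of genes tested, with higher genes drawn upward and lower genes downward, for the 85 subunits tested (dark) and all 20821 genes (pale). The dark bars reach 38.8%, 47.1% and 63.5% upward and 10.6%, 16.5% and 3.53% downward, and the pale bars lie between 26.7% and 31.5% in both directions.

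The excess was one of small differences. At 1.5-fold or more, 6 subunits were higher and 0 lower with DBP5 siRNA, 11 were higher and 1 lower with GLE1 siRNA, and 11 were higher and 1 lower with IPPK siRNA. Over all genes the shares at this size were 12.6% higher and 12.1% lower for DBP5, 16.0% and 17.7% for GLE1, and 13.2% and 12.6% for IPPK. The quartiles of the subunits were 0.00 and 0.29 on the log2 scale for DBP5, -0.03 and 0.31 for GLE1, and 0.06 and 0.40 for IPPK, closer together than the -0.31 to 0.28, -0.40 to 0.36 and -0.32 to 0.30 of all genes.

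The shift was seen on every array. Relative to the control mean, the median subunit stood at 0.02, 0.03 and -0.04 on the control arrays, 0.13, 0.12 and 0.11 on the DBP5 arrays, 0.15, 0.14 and 0.14 on the GLE1 arrays and 0.26, 0.20 and 0.19 on the IPPK arrays. No knock-down array overlapped the control arrays in this median. Within each slide the median difference from that slide's control was 0.08 to 0.13 for DBP5, 0.10 to 0.16 for GLE1 and 0.18 to 0.22 for IPPK, and the number of subunits above control on the same slide was 56 to 65, 54 to 61 and 68 to 77 of 85 (65.9% to 76.5%, 63.5% to 71.8% and 80% to 90.6%). Of all genes 47.2% to 48.9%, 49.9% to 51.3% and 47.3% to 49.95% were above control on the same slide.

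**Figure D2:**
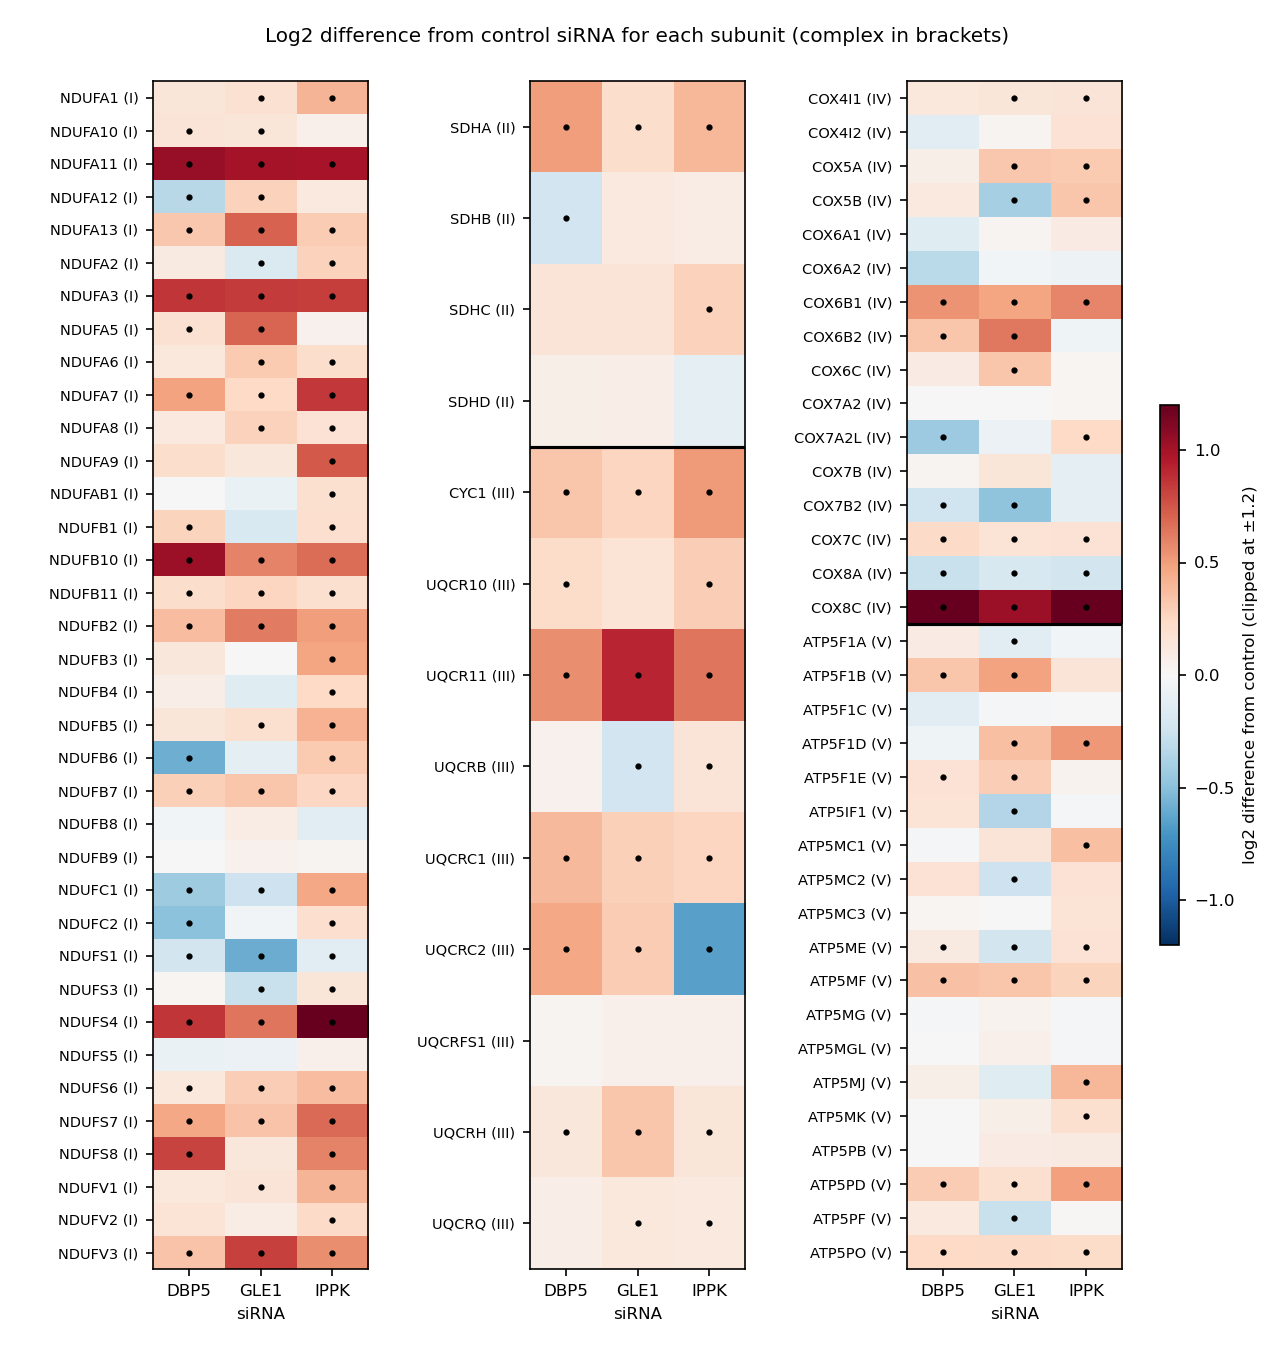
Log2 difference from control siRNA for 84 of the 85 subunits tested (rows, complex in brackets) and each siRNA (columns), on a colour scale clipped at both ends. A dot marks limma's adjusted p below 0.05. Most cells are red, with blue cells in NDUFS1 and COX8A for all 3 siRNAs, and in NDUFB6, NDUFC1, NDUFC2 and COX7A2L for DBP5 but not for IPPK.

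Complex I carries the entry of electrons from NADH, and its 7 nuclear-encoded core subunits hold the flavin and the iron-sulphur clusters, while its accessory subunits surround them. Of 37 subunits, 16 were higher and 5 lower with DBP5 siRNA, 20 higher and 5 lower with GLE1 siRNA, and 30 higher and 1 lower with IPPK siRNA, with medians of 0.14, 0.16 and 0.31. The higher shares were 43.2%, 54.1% and 81.1% beside 26.7%, 30.6% and 27.3% of all genes, and the lower shares 13.5%, 13.5% and 2.70% beside 27.5%, 31.5% and 28.0%. The largest rises were in accessory subunits.

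NDUFA11, an accessory subunit of the membrane arm, read 14.29, 14.19 and 14.19 on the control arrays, 15.21, 15.28 and 15.34 with DBP5 siRNA, 15.30, 15.16 and 15.21 with GLE1 siRNA, and 15.27, 15.15 and 15.22 with IPPK siRNA. All 9 knock-down arrays were above all 3 control arrays, and the 3 knock-downs overlapped each other. The ratios to control were 2.07 ± 0.094, 2.00 ± 0.101 and 1.98 ± 0.084 (SD, n = 3), with adjusted p of 2.0e-07, 1.4e-07 and 2.6e-07. The difference between GLE1 and DBP5 was -0.05, with a 95% interval of -0.18 to 0.08, and that between DBP5 and IPPK was 0.06, with an interval of -0.07 to 0.19.

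NDUFA3, also an accessory subunit, behaved alike in size, with ratios of 1.81 ± 0.068, 1.79 ± 0.082 and 1.77 ± 0.195 and adjusted p of 4.0e-06, 2.7e-06 and 4.7e-06. Its control arrays read 14.25, 14.22 and 14.25, and its knock-down arrays lay between 14.96 and 15.24. RefSeq lists 6 pseudogenes of NDUFA3, and the probe's specificity between them was not tested.

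NDUFS4, an accessory subunit needed for the assembly and activity of complex I, differed between the knock-downs. It read 13.61, 13.65 and 13.58 on control arrays, 14.56, 14.45 and 14.39 with DBP5 siRNA, 14.29, 14.21 and 14.26 with GLE1 siRNA, and 14.82, 14.80 and 14.82 with IPPK siRNA, so that the 4 groups did not overlap. Its ratios were 1.81 ± 0.109, 1.56 ± 0.048 and 2.29 ± 0.020. NDUFB10, an accessory subunit of the membrane arm, was highest with DBP5 siRNA, at a ratio of 2.04 ± 0.056 against 1.51 ± 0.012 with GLE1 and 1.60 ± 0.013 with IPPK siRNA, with control arrays between 13.99 and 14.04, DBP5 arrays between 14.99 and 15.07, GLE1 arrays between 14.59 and 14.61 and IPPK arrays between 14.67 and 14.70. NDUFA7 was highest with IPPK siRNA, at a ratio of 1.81 ± 0.085 (14.20, 14.21 and 14.12 on control arrays, 15.10, 14.99 and 14.99 on IPPK arrays), and reached 1.39 ± 0.088 with DBP5 and 1.18 ± 0.041 with GLE1 siRNA. NDUFV3 was highest with GLE1 siRNA, where its log2 difference was 0.82, against 0.35 and 0.56 with DBP5 and IPPK siRNA.

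Of the 7 core subunits 2 were higher and 1 lower in DBP5, 2 higher and 3 lower in GLE1, and 6 higher and 1 lower in IPPK knock-down. In DBP5 knock-down the higher share, 28.6%, lay near the 26.7% of all genes, and the lower share was 14.3% beside 27.5%. In GLE1 knock-down 28.6% were higher and 42.9% lower beside 30.6% and 31.5% of all genes. In IPPK knock-down 85.7% were higher and 14.3% lower beside 27.3% and 28.0%. NDUFS1, the largest core subunit, holds several of the iron-sulphur clusters and was the only complex I member lower in each knock-down. It read 14.55, 14.57 and 14.51 on control arrays, 14.30, 14.32 and 14.35 with DBP5 siRNA, 13.96, 13.94 and 13.93 with GLE1 siRNA, and 14.43, 14.41 and 14.38 with IPPK siRNA. Every knock-down array was below every control array, and the ratios were 0.86 ± 0.016, 0.66 ± 0.005 and 0.91 ± 0.014, with adjusted p of 8.5e-04, 3.2e-07 and 0.014. The fall with IPPK siRNA lost its call when the array of IPPK replicate 3 was left out. NDUFS8, a core iron-sulphur subunit, was higher with DBP5 siRNA by 0.81 and with IPPK siRNA by 0.59 (log2), while its difference of 0.13 with GLE1 siRNA did not pass the test (adjusted p = 0.079). GLE1 and DBP5 knock-down differed in NDUFS8 by -0.67 (adjusted p = 4.9e-06).

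The promoters of the members with the largest rises that hold a searched motif, NDUFA3, NDUFS4, NDUFA7 and UQCR11, and of the members lower in all knock-downs, NDUFS1 and COX8A, are shown because these genes moved the same way in every knock-down. NDUFA11 and NDUFB10, also among the largest rises, hold no searched motif and are not shown, so the promoters shown do not stand for all the largest rises. Each runs 5′ to 3′ on the gene's strand over 300 bases, 250 before and 50 after the RefSeq start site (GRCh38.p14), and capitals mark a motif.
NDUFA3 (chr19:54102605-54102904, plus strand): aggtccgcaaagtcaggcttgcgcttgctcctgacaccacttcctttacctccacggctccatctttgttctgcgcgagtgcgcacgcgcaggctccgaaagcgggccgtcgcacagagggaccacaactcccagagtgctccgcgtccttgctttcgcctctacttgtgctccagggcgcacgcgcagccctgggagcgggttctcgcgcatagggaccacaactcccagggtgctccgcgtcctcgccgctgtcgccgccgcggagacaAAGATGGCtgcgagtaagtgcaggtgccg
NDUFS4 (chr5:53560389-53560688, plus strand): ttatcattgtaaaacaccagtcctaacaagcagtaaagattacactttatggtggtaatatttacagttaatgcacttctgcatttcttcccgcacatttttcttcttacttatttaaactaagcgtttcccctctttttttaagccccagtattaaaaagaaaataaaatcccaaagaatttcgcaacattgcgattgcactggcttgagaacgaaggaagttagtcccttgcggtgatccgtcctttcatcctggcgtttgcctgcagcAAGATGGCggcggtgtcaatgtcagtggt
NDUFA7 (chr19:8321326-8321625, minus strand): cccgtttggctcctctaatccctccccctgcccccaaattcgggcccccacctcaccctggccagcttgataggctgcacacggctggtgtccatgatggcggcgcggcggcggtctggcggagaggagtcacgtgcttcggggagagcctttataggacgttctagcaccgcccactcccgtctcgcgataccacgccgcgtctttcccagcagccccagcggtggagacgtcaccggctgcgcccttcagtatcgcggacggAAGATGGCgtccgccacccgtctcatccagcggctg
UQCR11 (chr19:1605413-1605712, minus strand): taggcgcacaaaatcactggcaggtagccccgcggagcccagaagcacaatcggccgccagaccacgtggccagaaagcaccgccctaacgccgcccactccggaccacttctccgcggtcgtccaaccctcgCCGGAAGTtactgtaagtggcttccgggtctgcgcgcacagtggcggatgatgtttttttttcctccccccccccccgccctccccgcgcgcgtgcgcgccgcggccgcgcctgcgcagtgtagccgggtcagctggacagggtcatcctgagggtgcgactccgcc
COX8A (chr11:63974370-63974669, plus strand): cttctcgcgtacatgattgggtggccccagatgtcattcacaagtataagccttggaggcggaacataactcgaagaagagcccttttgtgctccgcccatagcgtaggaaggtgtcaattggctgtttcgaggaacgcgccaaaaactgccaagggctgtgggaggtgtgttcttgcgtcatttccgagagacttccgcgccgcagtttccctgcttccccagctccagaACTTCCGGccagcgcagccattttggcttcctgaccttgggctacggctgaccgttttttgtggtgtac
NDUFS1 (chr2:206159395-206159694, minus strand): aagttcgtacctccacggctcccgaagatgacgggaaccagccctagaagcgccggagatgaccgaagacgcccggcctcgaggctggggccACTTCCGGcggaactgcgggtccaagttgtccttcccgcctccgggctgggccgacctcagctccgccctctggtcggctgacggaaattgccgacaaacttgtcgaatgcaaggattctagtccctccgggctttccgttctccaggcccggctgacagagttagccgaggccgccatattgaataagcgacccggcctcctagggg
The capitals in the first 3 are AAGATGGC, the core that YY1 binds, with its first base 22, 22 and 15 bases after the start site. These letters include ATG, and whether they overlap the start codon of these genes was not tested. Those in UQCR11 are the ETS core CCGGAAGT at -117, and those in COX8A and NDUFS1 are its reverse strand, ACTTCCGG, at -19 and -158, so that this core stands in promoters of members that moved either way.

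Of the 86 members 70 had a promoter in the table. AAGATGGC, searched on both strands, was in 11 of these (15.7%) and in 619 of 15843 promoters of protein-coding genes (3.91%). CCGGAAGT was in 10 members (14.3%) against 6.19% of all, and CGCATGCG, the palindromic core of NRF1 sites, was in 10 (14.3%) against 2.88%. At least 1 of the 3 was in 28 members (40.0%) and in 12.02% of all promoters. The members with AAGATGGC had median differences of 0.24, 0.24 and 0.26 for DBP5, GLE1 and IPPK siRNA, and those without it 0.12, 0.13 and 0.19. The members with CGCATGCG had medians of 0.11, 0.01 and 0.17, and those without it 0.14, 0.15 and 0.22. The members with CCGGAAGT had medians of 0.10, 0.10 and 0.17, and those without it 0.13, 0.15 and 0.22. These splits were not tested, and a match describes the letters, not binding.

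**Figure D3:**
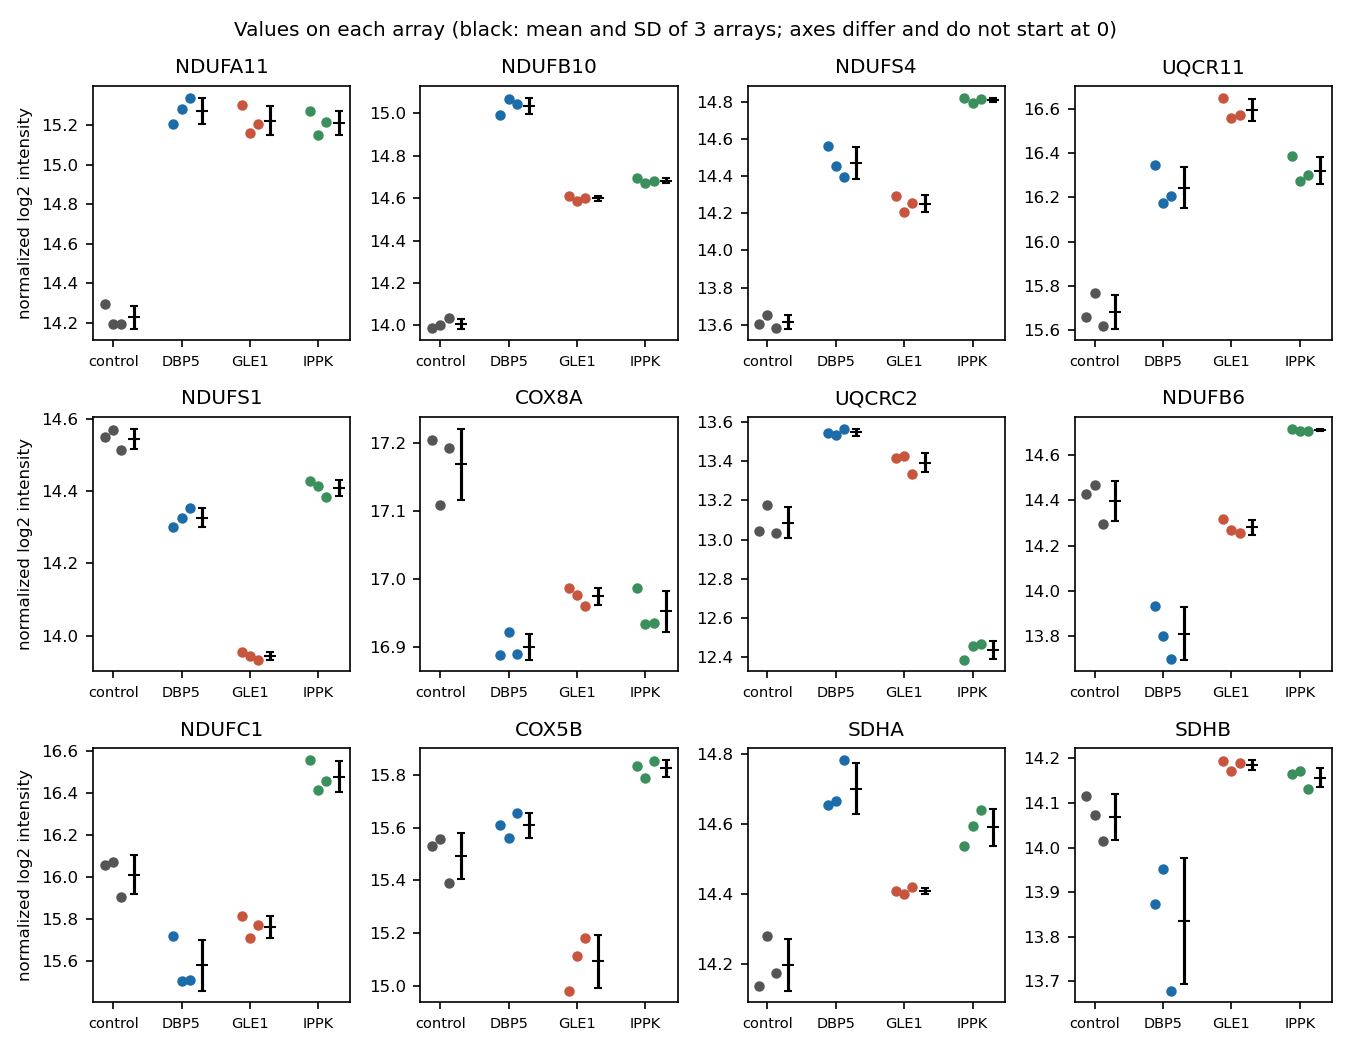
Normalized log2 intensity on each array (points) for 12 subunits under control, DBP5, GLE1 and IPPK siRNA, with the mean and SD of 3 arrays in black. The axes differ between panels and do not start at 0. NDUFA11, NDUFB10, NDUFS4 and UQCR11 lie above control in every knock-down, NDUFS1 and COX8A below it, and UQCRC2, NDUFB6 and NDUFC1 lie on opposite sides for DBP5 and IPPK siRNA.

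Some members of complex I moved in opposite directions. NDUFB6, an accessory subunit of the membrane arm, read 14.43, 14.47 and 14.30 on control arrays, 13.93, 13.80 and 13.70 with DBP5 siRNA, 14.32, 14.27 and 14.26 with GLE1 siRNA, and 14.72, 14.71 and 14.71 with IPPK siRNA. The DBP5 arrays were all below and the IPPK arrays all above the control arrays, with ratios of 0.67 ± 0.054 and 1.24 ± 0.005 (adjusted p of 2.5e-05 and 0.0020), and DBP5 and IPPK knock-down differed by -0.90 (adjusted p = 1.7e-06). NDUFC1, another membrane-arm subunit, read 16.06, 16.07 and 15.90 on control arrays, 15.72, 15.51 and 15.51 with DBP5 siRNA and 16.56, 16.41 and 16.46 with IPPK siRNA. It fell to a ratio of 0.74 ± 0.064 with DBP5 siRNA and rose to 1.38 ± 0.071 with IPPK siRNA. With GLE1 siRNA its ratio was 0.84 ± 0.031 (adjusted p = 0.014), a call that was lost without control replicate 1, control replicate 2 or GLE1 replicate 2. The within-slide differences of NDUFC1 were -0.34, -0.56 and -0.39 for DBP5 and 0.50, 0.34 and 0.55 for IPPK siRNA. NDUFC2, also of the membrane arm, read 15.39, 15.45 and 15.45 on control arrays by the brighter of its 2 probes, and 14.85 to 14.998 with DBP5 siRNA, a ratio of 0.711 ± 0.0395. With IPPK siRNA it read 15.76, 15.56 and 15.57, higher by 0.20 (adjusted p = 0.021), so the pair of knock-downs again stood on either side of control. By its second probe the differences were -0.14 and 0.10, with no call in either.

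NDUFB3 was called in IPPK knock-down and in neither other, at a ratio of 1.39 ± 0.012 (15.48, 15.55 and 15.29 on control arrays, 15.93, 15.91 and 15.91 on IPPK arrays), and GLE1 and DBP5 knock-down differed from it by -0.48 and -0.34 on the log2 scale.

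Complex II couples succinate oxidation in the citric acid cycle to ubiquinone. SDHA holds the flavin, SDHB the iron-sulphur clusters, and SDHC and SDHD anchor them in the membrane. SDHA read 14.14, 14.28 and 14.17 on control arrays, 14.65, 14.66 and 14.78 with DBP5 siRNA, 14.41, 14.40 and 14.42 with GLE1 siRNA, and 14.54, 14.59 and 14.64 with IPPK siRNA. All knock-down arrays were above control, with ratios of 1.42 ± 0.072, 1.16 ± 0.008 and 1.31 ± 0.047 (adjusted p of 2.3e-05, 0.0066 and 1.4e-04), and its 4 probes had log2 differences of 0.51 to 0.69, 0.21 to 0.32 and 0.22 to 0.47.

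SDHB went the other way with DBP5 siRNA, from 14.12, 14.07 and 14.02 on control arrays to 13.87, 13.95 and 13.68, a ratio of 0.85 ± 0.0816 (adjusted p = 0.012) that lost its call when only the 6 arrays compared were fitted. With GLE1 and IPPK siRNA its ratios of 1.08 ± 0.009 and 1.06 ± 0.016 did not pass the test, and DBP5 knock-down differed from IPPK by -0.32 (adjusted p = 0.0023). SDHC read 14.12, 14.18 and 13.90 on control arrays and 14.45, 14.27 and 14.33 with IPPK siRNA, a ratio of 1.21 ± 0.0775 (adjusted p = 0.045) that lost its call in most alternatives, while 1.11 ± 0.156 with DBP5 siRNA and 1.11 ± 0.020 with GLE1 siRNA did not pass. These values are of the brightest of 3 SDHC probes. Within slides, IPPK minus control was 0.09, 0.10 and 0.34 by the second probe and 0.44, 0.42 and 0.57 by the dimmest. With DBP5 and GLE1 siRNA the SDHC probes did not share a sign. SDHD read 13.25, 13.28 and 13.16 on control arrays and differed by 0.07, 0.08 and -0.12 by the brightest of its 3 probes, with no call. With IPPK siRNA its other probes differed by -0.13, with no call, and by -0.34, past the threshold (adjusted p = 8.6e-04). The flavin and iron-sulphur subunits of this complex thus had opposite calls in DBP5 knock-down.

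Complex III takes electrons from ubiquinol to cytochrome c. Of its 9 subunits 6, 6 and 7 were higher and 0, 1 and 1 lower with DBP5, GLE1 and IPPK siRNA, with medians of 0.22, 0.26 and 0.16. The higher shares were 66.7%, 66.7% and 77.8%, beside 26.7%, 30.6% and 27.3% of all genes, and the lower shares 0%, 11.1% and 11.1%, beside 27.5%, 31.5% and 28.0%. UQCR11, a small subunit, read 15.66, 15.77 and 15.62 on control arrays, 16.35, 16.18 and 16.21 with DBP5 siRNA, 16.65, 16.56 and 16.57 with GLE1 siRNA, and 16.39, 16.27 and 16.30 with IPPK siRNA. Its ratios were 1.48 ± 0.097, 1.88 ± 0.066 and 1.56 ± 0.065. CYC1, which carries the haem that hands electrons to cytochrome c, was higher by 0.33, 0.26 and 0.51, and UQCRC1, a large matrix-side core protein, by 0.39, 0.29 and 0.26.

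UQCRC2, the partner of UQCRC1, had the largest difference between knock-downs among the 12 subunits called in opposite directions. It read 13.04, 13.18 and 13.04 on control arrays, 13.54, 13.53 and 13.57 with DBP5 siRNA, 13.42, 13.42 and 13.34 with GLE1 siRNA, and 12.39, 12.46 and 12.47 with IPPK siRNA. The DBP5 and GLE1 arrays were all above and the IPPK arrays all below the control arrays, with ratios of 1.38 ± 0.017, 1.24 ± 0.041 and 0.64 ± 0.019 (adjusted p of 3.0e-05, 4.3e-04 and 2.2e-06). GLE1 and IPPK knock-down differed by 0.95 (95% interval 0.84 to 1.07) and DBP5 and IPPK by 1.11 (0.99 to 1.22). The within-slide differences were 0.50, 0.35 and 0.53 for DBP5 and -0.66, -0.72 and -0.57 for IPPK. UQCRC1 was higher with IPPK siRNA, so the pair had opposite calls there.

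UQCRB, a ubiquinone-binding subunit, had 2 probes that disagreed. The brighter probe, designed on the transcript NM_006294, was lower with GLE1 siRNA by -0.23 on the log2 scale (14.89, 14.87 and 14.72 on control arrays, 14.64, 14.59 and 14.59 on GLE1 arrays). The dimmer one, designed on NM_001254752, read 4.58, 4.76 and 4.72 on control arrays, 6.31, 6.30 and 6.23 with DBP5 siRNA, 7.19, 7.51 and 7.44 with GLE1 siRNA, and 7.23, 7.43 and 7.51 with IPPK siRNA. Its signal was clear of background on each of the 12 arrays, and its ratios to control were 3.02, 6.49 and 6.54 (adjusted p of 3.1e-07, 4.1e-09 and 7.6e-09), beyond any difference in the brightest probes of the other members. With GLE1 siRNA the 2 probes were past the threshold in opposite directions, the only such case among 15 genes with several probes. In those genes the probes had the same sign in 12, 10 and 14 of 15 for DBP5, GLE1 and IPPK siRNA. The second probe of NDUFC2 was higher by 0.71 with GLE1 siRNA, where the brighter one differed by -0.03, and the second probe of COX6B2 differed by -0.03 where the brighter one was higher by 0.63.

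**Figure D4:**
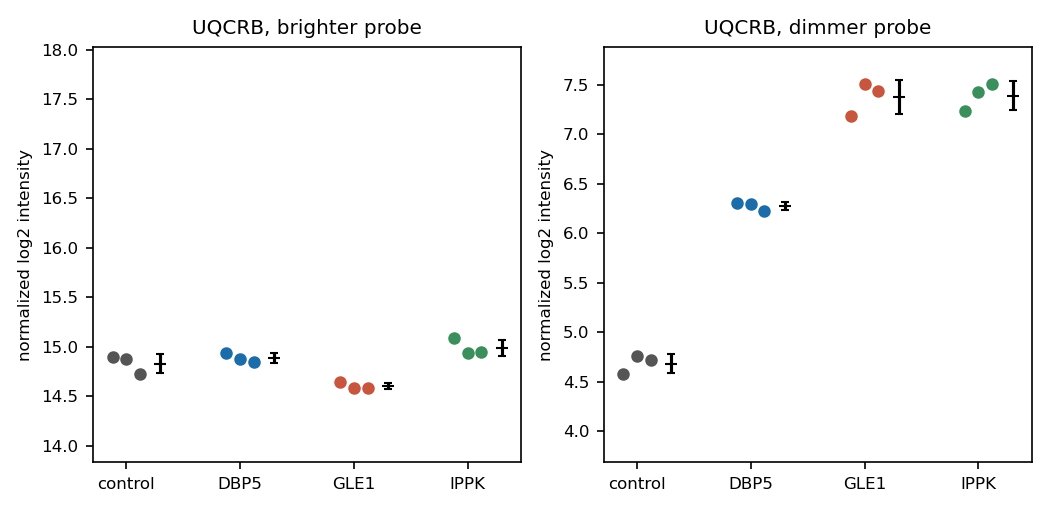
Normalized log2 intensity on each array (points) for the brighter and the dimmer probe of UQCRB, with the mean and SD of 3 arrays in black; both panels span the same range around their own control mean. The dimmer probe rises from 4.58 to 4.76 on control arrays to between 7.19 and 7.51 with GLE1 siRNA, where the brighter one lies below its control arrays.

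Complex IV reduces oxygen, and several of its nuclear-encoded subunits exist as a common form and a form of certain tissues. Of 16 subunits tested 4, 7 and 7 were higher and 3, 3 and 1 lower, with medians of 0.05, 0.09 and 0.13. The higher shares were 25%, 43.8% and 43.8% and the lower shares 18.8%, 18.8% and 6.25%, beside 26.7%, 30.6% and 27.3% higher and 27.5%, 31.5% and 28.0% lower of all genes, so the higher calls with DBP5 siRNA lay near the general rate. COX6B1, which faces the intermembrane space, was higher by 0.54, 0.48 and 0.59. COX8A, the common form of the smallest subunit, read 17.20, 17.11 and 17.19 on control arrays, 16.89, 16.92 and 16.89 with DBP5 siRNA, 16.99, 16.98 and 16.96 with GLE1 siRNA, and 16.99, 16.93 and 16.93 with IPPK siRNA. Its knock-down arrays were all below the control arrays, at ratios of 0.83 ± 0.011, 0.87 ± 0.008 and 0.86 ± 0.018 (adjusted p of 3.4e-04, 0.0024 and 0.0014).

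The testis form COX8C read 3.33, 3.45 and 3.37 on control arrays, where it was not well above background, and 4.32 to 4.76 on the knock-down arrays. Against the lowest signal well above background it was at least 2.07-fold higher with DBP5 siRNA, 1.66-fold with GLE1 siRNA and 1.91-fold with IPPK siRNA. Of the other tissue forms, COX7B2 fell with GLE1 siRNA from 12.07, 12.14 and 11.90 to 11.58, 11.55 and 11.53, a ratio of 0.72 ± 0.013, and with DBP5 siRNA to 0.85 ± 0.0825 with overlapping arrays (adjusted p of 5.2e-04 and 0.035), while COX4I2 and COX6A2 had no call. COX6B2, whose 2 probes differ as given above, was higher by its brighter probe with DBP5 and GLE1 siRNA. In all, 2, 2 and 1 of the 5 tissue forms tested were higher (40%, 40% and 20%) and 1, 1 and 0 lower (20%, 20% and 0%). Of the 11 other complex IV subunits 2, 5 and 6 were higher (18.2%, 45.5% and 54.5%) and 2, 2 and 1 lower (18.2%, 18.2% and 9.09%). Among all genes 26.7%, 30.6% and 27.3% were higher and 27.5%, 31.5% and 28.0% lower. With so few tissue forms no difference between these groups is read from the counts.

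COX5B, which binds zinc on the matrix side, read 15.53, 15.56 and 15.39 on control arrays, 14.98, 15.11 and 15.18 with GLE1 siRNA and 15.83, 15.79 and 15.85 with IPPK siRNA. Its ratios were 0.76 ± 0.053 and 1.26 ± 0.0295, and the 2 knock-downs differed by -0.73 (adjusted p = 3.5e-06). COX7A2L, which takes part in joining complexes III and IV, read 14.98, 15.02 and 14.98 on control arrays, 14.57, 14.54 and 14.55 with DBP5 siRNA and 15.34, 15.18 and 15.18 with IPPK siRNA, with ratios of 0.74 ± 0.007 and 1.18 ± 0.076 by the brighter of its 2 probes. The second probe was lower by -0.43 with DBP5 siRNA and differed by 0.01 with IPPK siRNA, with no call (adjusted p = 0.88), so the opposite calls of COX7A2L rest on the brighter probe. The protein once named NDUFA4, now counted with complex IV, has the symbol COXFA4 in RefSeq and so lay outside the rule. It differed by 0.09, 0.32 and 0.18, the last 2 past the threshold.

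**Figure D5:**
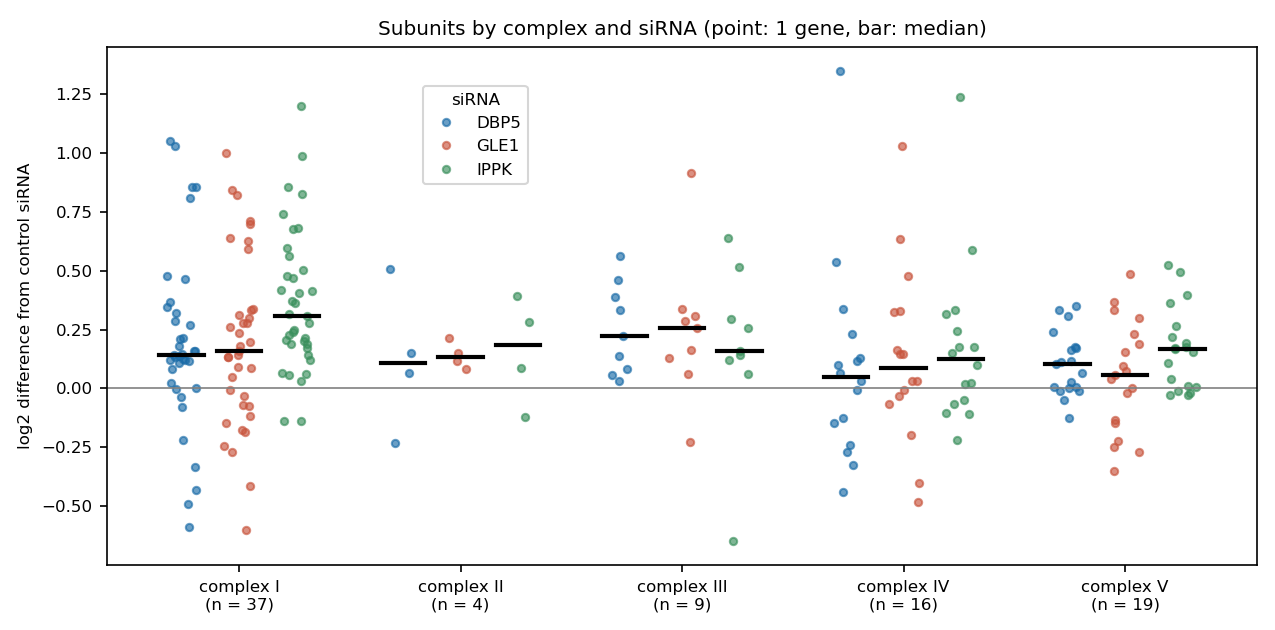
Log2 difference from control siRNA of each subunit (point) by complex and siRNA, with the median as a black bar. The IPPK median is highest in complex I, at 0.31, and all the medians lie above 0. COX8C, the highest point of complex IV for each siRNA, is drawn at its fitted difference although its control arrays were not above background.

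Complex V makes ATP, with a catalytic F1 head, a c-ring that turns in the membrane, a peripheral stalk that holds the head still, and small membrane subunits. Of 19 subunits 6, 6 and 8 were higher and 0, 5 and 0 lower, no call reached 1.5-fold, and the medians were 0.10, 0.06 and 0.17. With DBP5 siRNA 31.6% were higher, beside 26.7% of all genes, with GLE1 siRNA 31.6% were higher and 26.3% lower, beside 30.6% and 31.5%, and with IPPK siRNA 42.1% were higher, beside 27.3%. Both GLE1 shares and the higher share for DBP5 thus lay near the general rate. All 5 falls were with GLE1 siRNA, in ATP5F1A, ATP5IF1, ATP5MC2, ATP5ME and ATP5PF. ATP5IF1, the inhibitor that stops the enzyme from running backwards, read 16.39, 16.48 and 16.21 on control arrays and 16.07, 16.03 and 15.93 with GLE1 siRNA, a ratio of 0.79 ± 0.040 (adjusted p = 0.0016). ATP5PF, of the stalk, went from 15.82, 15.82 and 15.78 to 15.55, 15.48 and 15.57 (ratio 0.83 ± 0.027), and ATP5MC2, which encodes the c-ring protein, from 16.77, 16.61 and 16.66 to 16.39, 16.46 and 16.46 (0.84 ± 0.025), a call that was lost without control replicate 1. By their brightest probes these 3 were called in GLE1 knock-down alone and differed from both other knock-downs. The second probe of ATP5IF1 was lower with GLE1 siRNA by -0.55 and also with IPPK siRNA by -0.16 (adjusted p = 0.012).

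The 3 c-ring genes encode the same mature protein and did not move together. ATP5MC1 was higher only with IPPK siRNA, at a ratio of 1.29 ± 0.070 (14.66, 14.64 and 14.53 on control arrays, 15.05, 14.90 and 14.96 on IPPK arrays), ATP5MC2 was lower only with GLE1 siRNA, and ATP5MC3 had no call. ATP5MJ, a small membrane subunit, was higher only with IPPK siRNA (14.16, 14.18 and 14.01 on control arrays, 14.57, 14.51 and 14.45 on IPPK arrays), at 1.31 ± 0.053. Of the 5 F1 genes 2, 3 and 1 were higher (40%, 60% and 20%) and 0, 1 and 0 lower (0%, 20% and 0%). Of the 4 stalk genes 2, 2 and 2 were higher (50% each) and 0, 1 and 0 lower (0%, 25% and 0%). Among all genes 26.7%, 30.6% and 27.3% were higher and 27.5%, 31.5% and 28.0% lower. With so few genes these counts are not read as a difference from all genes. ATP5MG and ATP5MGL, near-identical copies, both differed by less than 0.1 in all knock-downs, and their probes may share RNA.

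Between knock-downs, more subunits were called lower than higher in DBP5 and in GLE1 against IPPK knock-down, and many had no call. GLE1 against IPPK gave 35 lower and 13 higher of 85, 37 without a call and a median of -0.11, where 30.7% and 29.4% of all genes were called. DBP5 against IPPK gave 26 lower and 5 higher, 54 without a call and a median of -0.08, against 25.1% and 23.8% of all genes. GLE1 against DBP5 gave 22 lower and 18 higher, with a median of 0.02, against 28.0% and 26.5%. Complex I had 20 lower and 5 higher of 37 in GLE1 against IPPK (54.1% and 13.5%), and its core subunits 6 lower and 0 higher of 7 (85.7% and 0%). Complex III had 2 lower and 3 higher of 9 (22.2% and 33.3%), beside the 30.7% and 29.4% of all genes, too few to read as a difference.

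Other mitochondrial gene lists were read beside the subunits. Of all genes 26.7%, 30.6% and 27.3% were higher and 27.5%, 31.5% and 28.0% lower with DBP5, GLE1 and IPPK siRNA, and the counts below are given in that order. Of 77 mitochondrial ribosomal protein genes, which make the machinery for the subunits encoded in mitochondrial DNA, 17, 21 and 38 were higher (22.1%, 27.3% and 49.4%) and 22, 36 and 12 lower (28.6%, 46.8% and 15.6%), with medians of -0.05, -0.12 and 0.15. Of 46 assembly factors tested of 50 listed, 15, 20 and 24 were higher (32.6%, 43.5% and 52.2%) and 13, 12 and 10 lower (28.3%, 26.1% and 21.7%). With DBP5 siRNA the shares of both lists lay near those of all genes. SDHAF4, a complex II assembly factor, was higher by 1.75, 1.00 and 1.40, and SURF1, which complex IV assembly needs, differed by -1.07, 0.24 and -2.83, all past the threshold.

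Of 13 citric acid cycle genes 6, 7 and 8 were higher (46.2%, 53.8% and 61.5%) and 1, 3 and 2 lower (7.69%, 23.1% and 15.4%). DLD, a shared dehydrogenase subunit, was higher by 0.90, 1.198 and 0.95, and IDH3A, the catalytic subunit of isocitrate dehydrogenase, fell by 0.71, 3.45 and 0.59. Of 15 genes of electron carriers and coenzyme Q synthesis 7, 2 and 8 were higher (46.7%, 13.3% and 53.3%) and 3, 8 and 3 lower (20%, 53.3% and 20%). COQ7 and PDSS2, enzymes of that synthesis, fell by 1.39 and 1.15 with GLE1 siRNA. CYCS, cytochrome c itself, fell by 0.38 with DBP5 and 0.24 with GLE1 siRNA. None of the 13 subunits encoded in mitochondrial DNA had a probe matched by name.

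Of 14 regulators of respiratory genes 2, 4 and 4 were higher (14.3%, 28.6% and 28.6%) and 7, 6 and 6 lower (50%, 42.9% and 42.9%). GABPB1, part of an ETS factor, fell by 0.83, 0.52 and 0.87 with DBP5, GLE1 and IPPK siRNA, and YY1 fell by 1.32 with IPPK siRNA. TFAM, which packages mitochondrial DNA, was higher by 0.45, 0.81 and 0.85. The largest rises of this list were in PPARGC1B, by 0.79, 1.52 and 1.01, and NRF1 fell by 0.67 with GLE1 and 0.39 with IPPK siRNA. Of 3 nuclear-retained RNAs tested, KCNQ1OT1 was higher by 0.64, 0.84 and 0.22, MALAT1 fell by 1.08 with IPPK siRNA, and MEG3 was higher by 0.31 with GLE1 siRNA. Their summed level was 12.80 to 12.83 on control arrays, 13.17 to 13.36 with DBP5 siRNA, 13.51 to 13.52 with GLE1 siRNA and 12.93 to 13.01 with IPPK siRNA, and the part of nuclear RNA in the subunit results was not tested.

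Many members have processed copies in the genome. RefSeq lists 186 pseudogenes under the rule, 50 of the 86 members have at least 1, and COX6C has the most, 18. A probe for such a member may also bind RNA of a copy, which was not tested. NDUFA11, NDUFS4, UQCR11, NDUFS1, COX8A, NDUFB6 and NDUFC1, which have large differences above, have 0 listed.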

How the data were processed

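The authors deposited, for each of 12 arrays, spot intensities from Feature Extraction 10.7.3.1, background-subtracted on a linear scale and not normalized between arrays, with flags for outlier spots and for spots well above background. A second table that the authors deposited holds log2 values normalized by LOESS in R per the methods, used here as an alternative. Its columns followed the median spot signal before background subtraction, and its background setting is not given in the sources used here.

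From the background-subtracted intensity, control and outlier spots were left out, log2 values of one probe's spots were averaged, and arrays were normalized by cyclic loess. Of 34127 probes, 26449 were named through RefSeq accessions, and the brightest probe stood for a gene. limma 3.58.1 in R 4.3.3 was fitted over all 12 arrays with one mean per siRNA, with Benjamini-Hochberg adjustment over all 20821 genes tested in each comparison, at 0.05. In simulated data with 200 of 20817 genes changed 1.5-fold, it recovered 68.5%, 71% and 70% of these for DBP5, GLE1 and IPPK against control. False calls numbered 5, 12 and 8. The simulated noise held no slide effect and far fewer genes changed than were called in the real data. The array design names hg19, so no position was taken from it, and promoters are from RefSeq (GRCh38.p14). The number of arrays limits the precision. Tables and figures used Python 3.11.15, pandas 2.3.3 and matplotlib 3.10.9.

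Values on each array are given for the 3 largest falls and rises in each knock-down, the members called in one direction in all knock-downs or in opposite directions, those called in 1 knock-down and different from both others, complex II, the siRNA targets and members with disagreeing probes. Members, lists and this rule were chosen with earlier results of these data known. Other members are given by their log2 difference, and single genes of the other lists were named after their values were seen. Protein sequences were not used here. A member that meets this rule counts in the totals but is not reported here.

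Replicate numbers mark the slide. Deviations from the group means correlated across genes at 0.318 to 0.513 in 18 same-numbered pairs and -0.285 to -0.050 in 36 others, so the numbers pair the arrays, and a fit with the number as a block was an alternative. The others were 75th percentile scaling, quantile normalization, normexp (offset 50) on the median signal, the authors' values, dropping the filter on dim probes or applying it to all 12 arrays, averaging the probes of a gene, testing each probe on its own, fitting the 6 arrays of a comparison, omitting single arrays, and a t-test paired by slide. The methods name a paired t-test in their general statistics, without pairing by slide. For the arrays they name gene lists from a rank product, which was not run here.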

Additional observations from a re-analysis of the deposited data

How the results depend on the processing

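The direction of each count of subunits against control, more higher than lower, held under every alternative run. UQCRB turned: lower by its brighter probe with GLE1 siRNA against control (-0.23) and against DBP5 siRNA (-0.28), it was higher with the mean of its probes (1.24 and 0.41) and by its dimmer probe (2.70 and 1.10). The difference of SDHA between GLE1 and IPPK siRNA, -0.18, was 0.0654 and without a call by another of its probes, and NDUFC2 between the same siRNAs, lower by -0.23, was higher by 0.19 with the mean of its probes. No other call of a subunit turned to a call in the other direction when a gene was read by one value. Counts that moved by more than 1.5 times did so mostly under the t-test paired by slide with adjustment, which called 4 lower and 11 higher for DBP5, 8 lower for GLE1 and 28 higher for IPPK against control, 13 lower and 8 higher for GLE1 against DBP5, and 14 lower and 2 higher for DBP5 against IPPK. Without adjustment it called 10 higher for DBP5 against IPPK. The 3 lower calls of IPPK against control became 5 with 75th percentile scaling, 5 with the mean of a gene's probes and 6 with each probe on its own, and the 5 higher calls of DBP5 against IPPK became 8 with quantile normalization, 3 with only the 6 arrays and 8 with each probe on its own. With 75th percentile scaling the median differences became 0.0784 for DBP5 and 0.15 for IPPK against control, 0.0343 for GLE1 against DBP5 and -0.0617 for GLE1 against IPPK. Under this scaling the median of all genes moved the same way, from -0.02 to -0.07 for DBP5 and from -0.03 to -0.07 for IPPK against control, so that the median of the subunits stood above it by 0.15 in both for DBP5, and by 0.23 and then 0.21 for IPPK. The median of GLE1 against DBP5, 0.02, became -0.0121 with quantile normalization and 0.0349 with the mean of a gene's probes. The causes were not tested.

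With each array left out in turn, lower and higher calls ran from 8 to 9 and 27 to 32 for DBP5, 10 to 16 and 32 to 38 for GLE1, and 2 to 5 and 44 to 47 for IPPK against control. They ran from 20 to 23 and 17 to 20 for GLE1 against DBP5, 30 to 33 and 12 to 13 for GLE1 against IPPK, and 22 to 26 and 4 to 8 for DBP5 against IPPK. The medians ran from 0.10 to 0.14, 0.12 to 0.15, 0.18 to 0.23, 0.0034 to 0.0223, -0.12 to -0.0696 and -0.10 to -0.07 in the same order. The 5 lower calls for IPPK came without control replicate 3, the 8 higher calls of DBP5 against IPPK without DBP5 replicate 1, the median of 0.0034 without DBP5 replicate 3 and that of -0.0696 for GLE1 against IPPK without IPPK replicate 1.

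With the replicate block, counts were 10 lower and 34 higher for DBP5, 17 and 41 for GLE1 and 3 and 53 for IPPK against control. The block gave NDUFC1 a call in GLE1 against DBP5 (0.19) and changed no other call of a named member. Over the 104 differences of named members, 1813 refits gave 1687 with the same call, 98 without it, 23 with a call gained and 5 of the other sign, as given above for UQCRB and SDHA. Depth is not counted on arrays, and COX8C on control arrays was limited by background.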
